A study of Mus musculus with 4 samples.

Results

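The cells described here are the mature neurons of the mouse frontal cortex in a single-cell RNA dataset, taken as all frontal cortex cells that the authors labelled mNeur. They number 147 of 10014 frontal cortex cells and of 21644 cells in the series. The transgenic library holds 80 of them and the wildtype library 67, and all fall in 1 deposited cluster, number 13. The groups are transgenic mice and their C57BL/6 wildtype littermates. Both genotypes were 6 to 9 months old. The design text gives 3 mice for each group, the cells carry no mouse of origin, and each group is therefore 1 pooled library. The labels name neither the promoter of the transgene nor the founder line. Per the labels' protocols, the dissociation was meant for glial and vascular cells, so these neurons are the few that came through it. No difference between genotypes can be told apart here from a difference between 2 libraries, and every interval below covers counting error only.

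Most neurons of the forebrain release glutamate or GABA. Glutamatergic neurons load their vesicles through the transporters Slc17a7 or Slc17a6, whereas GABAergic neurons make GABA with Gad1 and Gad2 and load it through Slc32a1. The prion protein, encoded by Prnp, is a cell surface glycoprotein that neurons normally express.

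Levels were taken as counts of unique molecular identifiers (UMIs, 1 per captured transcript) summed over cells and scaled to 1000000 (CPM). Of the 4 defining markers Snap25, Syt1, Meg3 and Stmn2, 3 had their highest level of all 13 labelled types compared in the mNeur cells of each library. Stmn2 was the exception, at 254 and 283 CPM against 1697 and 1999 CPM in the immature neurons. The same held for 10 of 16 further neuronal markers in transgenic and 11 of 16 in wildtype cells, and for 14 of 19 excitatory genes in both. None of 14 genes of immature neurons peaked in mNeur, where their summed level was 1992 CPM in transgenic and 2322 CPM in wildtype cells, against 17935 and 19783 CPM in the authors' imNeur cells. The mNeur cells held 727307 transgenic and 587484 wildtype UMIs. Their median was 8842 UMIs per cell (range 1254 to 19969) in transgenic and 8761 (range 1209 to 22540) in wildtype. The libraries share 3 cell barcodes, none of them in an mNeur cell.

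The mNeur label covered 2.12% of transgenic frontal cortex cells (exact binomial 95% interval 1.68 to 2.63) and 1.07% of wildtype cells (0.833 to 1.36). The difference was 1.05 percentage points (Newcombe interval 0.542 to 1.60). Shares of labelled types depend on what else the dissociation released, and with 1 library a group no spread between mice is known.

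GABAergic cells made up most of the mNeur cells in both libraries. A cell was called inhibitory if it had at least 1 UMI of Gad1, Gad2 or Slc32a1 and none of Slc17a7, Slc17a6 or Slc17a8, and excitatory in the reverse case. Inhibitory cells numbered 48 of 80 in transgenic (60%, 48.4 to 70.8) and 43 of 67 in wildtype (64.2%, 51.5 to 75.5). Excitatory cells numbered 20 of 80 (25%, 15.99 to 35.9) and 21 of 67 (31.3%, 20.6 to 43.8). The differences, transgenic minus wildtype, were -4.18 points (-19.3 to 11.4) for inhibitory and -6.34 points (-20.8 to 8.03) for excitatory cells, both within counting error. Another 6 transgenic cells and no wildtype cell had UMIs of both kinds, where a count of 0 of 67 allows a share of up to 4.48% taken as 3 counts of the total, and up to 5.36% by the exact interval. The remaining 6 transgenic and 3 wildtype cells had neither, with a median depth of 1647 and 1382 UMIs. Microglia held few such UMIs. At median depths of 7404 and 7373 UMIs, 3.18% of transgenic and 0.732% of wildtype microglia had a glutamatergic transporter UMI, and 1.87% and 1.26% a GABAergic one. Whether these came from free RNA, doublets or wrong labels was not tested. The 6 transgenic cells with both kinds each had 1 UMI of Slc17a7 or Slc17a6.

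**Figure D1:**
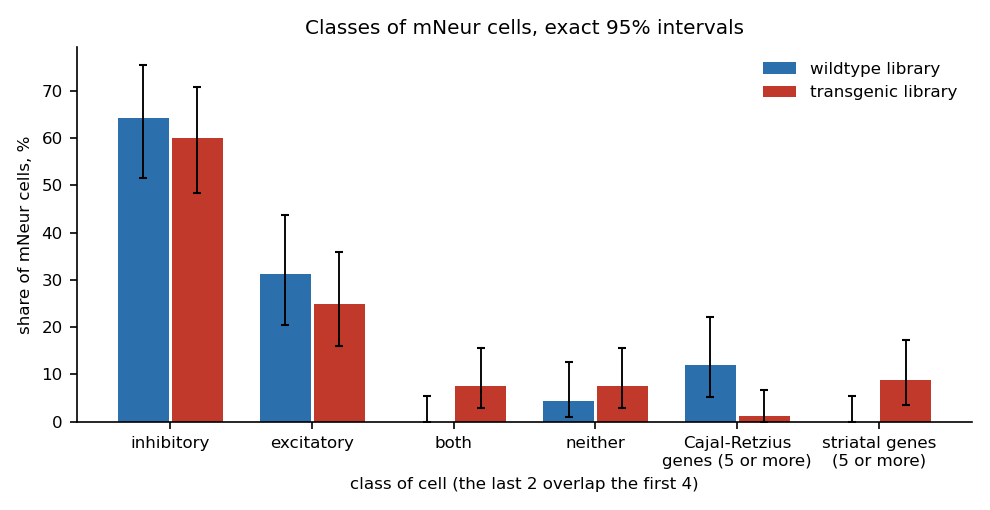
Share of mNeur cells in each class (vertical axis, percent) in the wildtype and transgenic libraries, with exact binomial 95% intervals as error bars. Inhibitory cells are 64.2% of wildtype and 60% of transgenic cells, excitatory cells 31.3% and 25%, and the 2 groups at the right, which overlap the first 4, each come almost wholly from 1 library.

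The genes of GABA synthesis and release differed by less than a doubling between the libraries. Gad1 (chromosome 2, 70553072 to 70602014, plus strand, GRCm38) stood at 1094 CPM in transgenic and 1658 CPM in wildtype mNeur cells, with UMIs in 52 and 42 cells. Its log2 ratio, transgenic over wildtype, was -0.60 (-0.74 to -0.46). Gad2 (chromosome 2, 22622205 to 22693874, plus strand) went the other way, at 840 and 650 CPM, a log2 ratio of 0.37 (0.18 to 0.56). Slc32a1, the vesicular GABA transporter, was at 243 and 252 CPM (-0.05, -0.37 to 0.27). Neither Gad gene passed the size used here to call a gene higher or lower, a doubling with an interval that leaves out 0.

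The inhibitory cells carried genes of olfactory bulb interneurons, and genes of cortical interneurons ranged from 0 UMIs to well detected. Meis2, a homeobox factor of olfactory bulb interneuron lineages (chromosome 2, 115863064 to 116065839, minus strand), was at 1808 CPM in transgenic and 1850 CPM in wildtype cells. Of the cells with Gad1, 47 of 52 transgenic and 42 of 42 wildtype ones had it. Within the inhibitory class it reached 2463 and 2704 CPM, against 79.5 and 83.9 CPM in the excitatory class. In microglia 2.08% and 1.41% of cells had a Meis2 UMI. Sp8, a zinc finger factor that olfactory bulb interneurons depend on, was at 234 and 267 CPM in inhibitory cells, with UMIs in 31 of 48 and 30 of 43 of them.

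Several other members of the olfactory bulb list followed the inhibitory class as well. The calcium-binding protein gene Calb2 stood at 2679 and 2336 CPM there, in 19 and 20 cells. Pcp4, a calmodulin regulator, was at 2605 and 2565 CPM, and Synpr, a synaptic vesicle protein, at 749 and 1064 CPM. Etv1 had 167 and 132 UMIs, Tshz1 159 and 130 UMIs and Pbx3 157 and 125 UMIs, all 3 being transcription factor genes of this lineage. Th, the rate-limiting enzyme of dopamine synthesis and a marker of periglomerular cells of the bulb, had 17 transgenic and 42 wildtype UMIs, in 8 and 15 cells. Every cell with Th also had Gad1. Cdhr1, another list member, did not follow the inhibitory class, with 0 UMIs there in both libraries and 30 and 11 in the excitatory cells. A single cell held 86.7% of its transgenic and 76.9% of its wildtype UMIs. Without the cells defined by Cajal-Retzius and striatal genes, described below, its UMIs over all mNeur cells went from 30 and 13 to 30 and 3. Th was called lower in the transgenic library, with a log2 ratio of -1.61 (-2.52 to -0.77), the only gene called of 12 compared in this list (at least 20 CPM in 1 library and 20 UMIs over both). Over all 8223 genes compared, 6.23% were called, 4.03% higher and 2.2% lower.

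Lhx6 and Prox1, transcription factors of cortical interneurons from the medial and caudal ganglionic eminences, had 0 UMIs in all 147 cells, as did Npas1. Pvalb and Sst, which mark the commonest cortical interneuron classes, had 2 UMIs each in the transgenic cells and 0 in the wildtype cells. Vip, the marker of a further class, had 0 and 3. Other genes of cortical interneurons were detected: Adarb2, an RNA-editing family member of interneurons from the caudal eminence, had 112 and 96 UMIs, in 35 and 29 cells. The neuropeptide gene Npy had 57 and 59 UMIs over all mNeur cells. Without 4 transgenic cells that had at least 20 UMIs of microglial markers, Npy was called lower in the transgenic library. Lamp5 had 47 and 25 UMIs, of which 28 and 2 lay in the inhibitory class and 10 and 23 in the excitatory class. The neuregulin receptor gene Erbb4 had 44 and 33, of which 43 and 31 lay in the inhibitory class. The label gives the tissue as frontal cortex, and whether part of the olfactory bulb was in the dissection was not tested.

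The excitatory class was smaller and more mixed. Slc17a7 is the transporter of most cortical glutamatergic neurons (chromosome 7, 45163949 to 45176142, plus strand). Its UMIs numbered 198 in transgenic and 43 in wildtype cells and lay in 24 and 13 cells. At 272 against 73.2 CPM it was called higher in the transgenic library (log2 1.90, 1.41 to 2.41). Slc17a6, which dominates in the thalamus, midbrain and some cortical neurons (chromosome 7, 51622006 to 51671119, plus strand), had 23 and 68 UMIs, in 5 and 11 cells. It was called lower (31.6 against 116 CPM, log2 -1.87, -2.62 to -1.17). A single cell of each library held much of its UMIs, 52.2% in transgenic and 50% in wildtype. The library with more Slc17a7 thus had less Slc17a6, although the share of excitatory cells was alike within counting error. With cells of 10% or more mitochondrial UMIs left out the Slc17a7 ratio was 0.92, under the size of a call. Within the excitatory class 11 of 20 transgenic and 4 of 21 wildtype cells were at or above that limit.

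Of the 19 excitatory genes, 16 had enough UMIs to compare. Slc17a7 and Sv2b, a synaptic vesicle glycoprotein, were called higher, and Slc17a6 and Tbr1, a T-box factor of early-born cortical neurons, were called lower. Sv2b was at 77.0 and 23.8 CPM (log2 1.69, 0.83 to 2.65) and Tbr1 at 19.2 and 69.8 CPM (-1.86, -2.85 to -0.95). The list had 8 members above 0 and 8 below, with a median log2 ratio of 0.19, beside 0.0039 over all genes. Of all genes compared 4.03% were called higher and 2.2% lower.

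The other compared excitatory genes differed by less than a doubling. Camk2a, the calcium/calmodulin kinase of forebrain excitatory synapses, was at 540 and 298 CPM (log2 0.86, 0.60 to 1.12). Nrgn, a postsynaptic calmodulin-binding protein, was at 393 and 426 CPM (-0.11, -0.36 to 0.14). The projection neuron factor Neurod2 was sparse, with 26 and 11 UMIs, and Fezf2, which specifies deep layer neurons that project out of the cortex, had 0 in every cell. In the excitatory class, Rorb, a layer 4 factor, was at 313 and 240 CPM, in 7 and 5 cells, and Cux2, an upper layer factor, at 139 and 89.5 CPM.

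Of 18 inhibitory genes 15 were compared, and 6.23% of all genes compared were called. Only Maf, a transcription factor of interneurons from the medial ganglionic eminence, was called, higher at 35.7 against 11.9 CPM (log2 1.59, 0.34 to 3.03), on 26 and 7 UMIs. The call was lost without 4 transgenic cells that had at least 20 UMIs of microglial markers, when 5.88% of all genes compared and none of 14 inhibitory genes were called. None of 15 was called in inhibitory cells alone or without the cells defined by Cajal-Retzius and striatal genes, where 4.64% of all genes compared were called. The distal-less genes Dlx1, Dlx2, Dlx5 and Dlx6 had log2 ratios of -0.61, -0.03, -0.19 and 0.21. The list median was -0.03, with 7 members above 0 and 8 below.

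**Figure D2:**
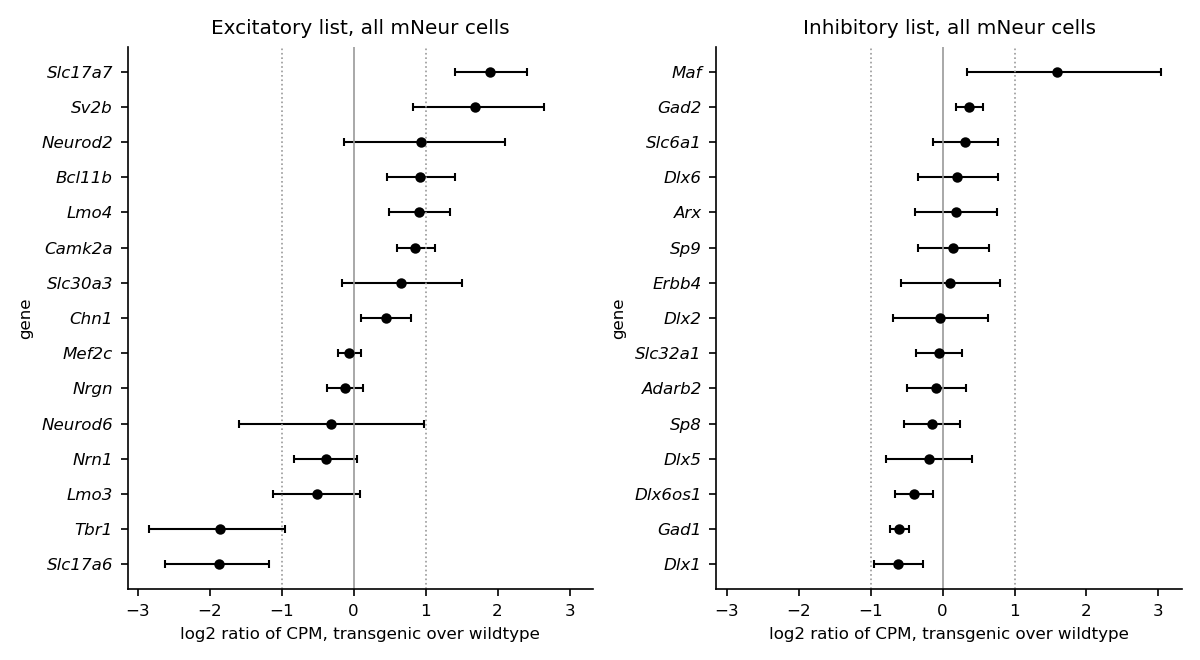
Log2 ratio of CPM, transgenic over wildtype, for compared genes of the excitatory (left, 15 of the 16 compared) and inhibitory (right) lists over all mNeur cells, with exact 95% counting intervals. Dotted lines mark a doubling and a halving: Slc17a7 and Sv2b lie beyond the upper line and Slc17a6 and Tbr1 beyond the lower one, while Maf alone lies beyond a line at the right.

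A small set of wildtype cells carried the genes of Cajal-Retzius cells, the reelin-secreting neurons of the outermost cortical layer, most of which die early in postnatal life. Of 8 list genes, 5 or more had a UMI in 8 wildtype cells and 1 transgenic cell (11.9%, 5.30 to 22.2, and 1.25%, 0.0316 to 6.77, of mNeur). No cell had exactly 4 of the genes, and 4 transgenic cells had 3. Trp73, a p53 family factor that marks these cells (chromosome 4, 154056253 to 154140208, minus strand), had 32 UMIs in wildtype and 4 in transgenic cells, all in those 8 cells and that 1 cell. The 8 wildtype cells each had Lhx1, Reln and Slc17a6 UMIs too. Reln, the secreted glycoprotein reelin (chromosome 5, 21884454 to 22344702, minus strand), ranged from 11 to 55 UMIs among them with a median of 21.5.

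These 8 cells held most of the wildtype counts of several genes that stood apart by genotype. They had 60 of 68 wildtype UMIs of Slc17a6, 199 of 217 of Reln, 221 of 246 of Ndnf, 32 of 41 of Tbr1 and 58 of 60 of Nr2f2. The Slc17a6 UMIs were uneven among the 8 cells, with 34 in 1 cell and a median of 2.5. Ndnf encodes a secreted neuron-derived factor and Nr2f2 the nuclear receptor COUP-TFII. Lhx1 had 32 wildtype UMIs and 0 transgenic ones, at least 13.2-fold lower when the 0 is set to a floor of 3 UMIs for the whole group. Nhlh2, a helix-loop-helix factor chosen after its values were seen, had 63 and 0, at least 26.0-fold lower. With these cells and the 7 striatal-gene cells of the transgenic library left out, the log2 ratios of Slc17a6 and Tbr1, which are not among the 8 list genes, were 0.95 and 0.04. Of the 7 Cajal-Retzius list genes compared 5 were called lower (Ebf3, Lhx1, Trp73, Reln and Ndnf), beside 2.2% of all genes, with a list median of -1.56. In inhibitory cells alone the list median over the 4 genes with enough UMIs was 1.08. The 8 wildtype cells were picked by these list genes and held most wildtype UMIs of those 5, so the calls are no separate result.

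Several striatal projection neuron genes were in turn higher in the transgenic library. Of 9 genes of the striatal list compared 5 were called higher, beside 4.03% of all genes. Penk, Foxp1 and Foxp2 were not called, and Penk had 202 and 139 UMIs in 23 and 25 cells (log2 0.23, -0.09 to 0.55). Medium spiny neurons, the GABAergic output cells of the striatum, are marked by the dopamine receptor genes and by signalling genes such as Ppp1r1b. At least 5 of 11 striatal list genes had a UMI in 7 transgenic cells (8.75%, 3.59 to 17.2) and in no wildtype cell, with the same upper limits for 0 of 67. Of the 7 cells, 1 had 5 of the genes and the others 7 to 9, and 7 transgenic and 4 wildtype cells had 4. By transmitter genes 5 of them were inhibitory, 1 excitatory and 1 both. The excitatory one was the cell with 5 list genes, had no Drd1 or Tac1 UMI and held 202 microglial marker UMIs.

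The dopamine D1 receptor gene Drd1 (chromosome 13, 54051183 to 54055705, minus strand) had 30 transgenic and 0 wildtype UMIs, at least 8.08-fold higher, and 28 of the 30 lay in these cells. Tac1, the substance P precursor that D1 neurons make, had 120 and 2 UMIs, 119 of them in these cells (log2 5.599, 3.715 to 8.661). Ppp1r1b, the dopamine-regulated phosphatase inhibitor DARPP-32, had 47 and 4 UMIs, of which 37 were in these cells. Adora2a and Penk, genes of the D2 type of spiny neuron, were found in 1 of the 7 cells, with 21 and 108 UMIs. Meis2 was seen in only 2 of the 7. Drd1, Ppp1r1b, Adora2a and Penk are among the list genes by which these cells were picked, so their counts there partly follow from that choice. Tac1 and Meis2 are not on that list.

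**Figure D3:**
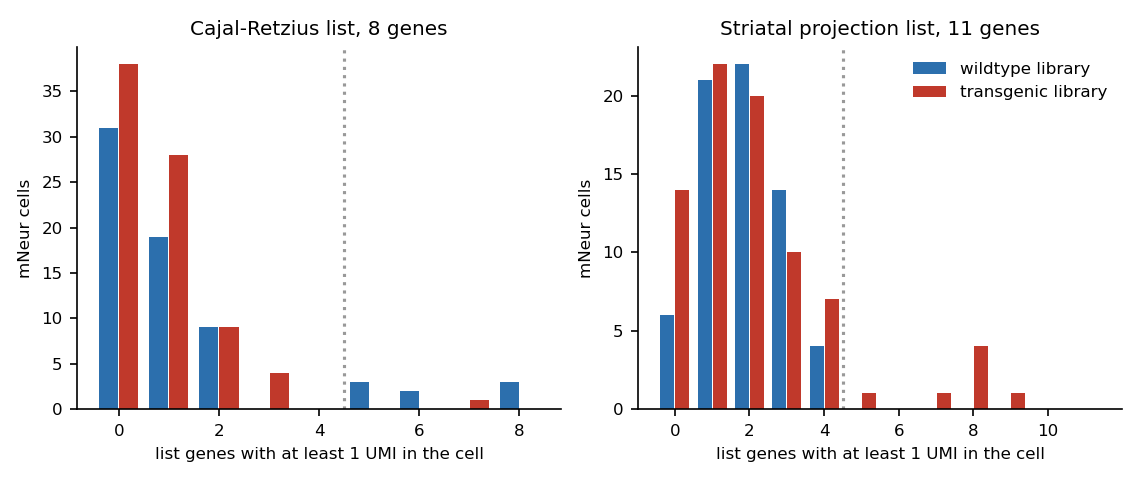
Number of mNeur cells (vertical axis) by how many genes of the Cajal-Retzius list (left, 8 genes) and of the striatal projection list (right, 11 genes) had at least 1 UMI in the cell, for each library. Right of the dotted line are 8 wildtype cells and 1 transgenic cell on the left, and 7 transgenic cells on the right.

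Prnp was called higher in the transgenic neurons, by 19.5-fold. Summed over cells it stood at 6010 CPM in the transgenic and 308 CPM in the wildtype library, on 4371 and 181 UMIs (log2 4.29, 4.07 to 4.51). The gene lies on chromosome 2, 131909928 to 131938429, plus strand. UMIs were found in 79 of 80 transgenic and 53 of 67 wildtype cells. With each cell thinned to 2000 UMIs, which left out 10 and 6 shallower cells, these shares were 95.7% and 41.0%. Microglia had Prnp UMIs in 47.9% and 10.2% of cells before thinning and in 17.2% and 2.70% after it.

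Single transgenic cells ranged from 0 to 26973 CPM of Prnp with a median of 4494, and wildtype cells from 0 to 1447 CPM with a median of 262. The quartiles were 1901 and 9404 CPM in transgenic and 101 and 456 CPM in wildtype cells. The groups overlap: 66 transgenic cells lay above the highest wildtype cell and 14 (17.5%) at or below it, 5 of them below the wildtype median. The 10 transgenic cells with the most Prnp UMIs held 44.2% of them.

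The difference was present in both transmitter classes. In inhibitory cells Prnp was at 5703 and 295 CPM (log2 4.272, 4.005 to 4.552) and in excitatory cells at 4981 and 335 CPM (3.89, 3.52 to 4.29). The 6 transgenic cells with neither kind of transmitter gene were at 14910 CPM. The 6 with both kinds were at 10440 CPM, where 1 cell held 364 of their 525 Prnp UMIs, and without it at 4392 CPM. The 7 striatal-gene cells had 2029 CPM, ranging from 927 to 2907 CPM, all below the transgenic median of 4494 CPM. The 8 wildtype Cajal-Retzius-gene cells had 357 CPM, and the 1 transgenic cell 1742 CPM.

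**Figure D4:**
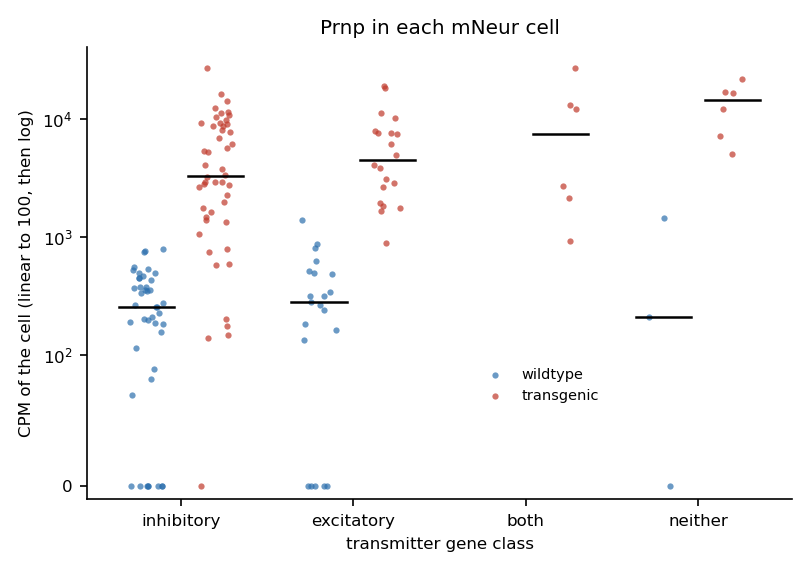
CPM of Prnp in each mNeur cell, by transmitter class and library, on an axis that is linear to 100 and logarithmic above; each point is 1 cell and the black line is the median of its group. Of 80 transgenic points 66 lie above the highest wildtype point at 1447 CPM.

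The stretch of the endogenous gene that lies just upstream of its annotated start is shown because Prnp had the highest ratio of the genes named by size. These are the 250 bases before the RefSeq start of Prnp, GRCm38.p6 chr2:131909678-131909927, plus strand, 5′ to 3′, with matches to GGGCGG on either strand in capitals.
Prnp: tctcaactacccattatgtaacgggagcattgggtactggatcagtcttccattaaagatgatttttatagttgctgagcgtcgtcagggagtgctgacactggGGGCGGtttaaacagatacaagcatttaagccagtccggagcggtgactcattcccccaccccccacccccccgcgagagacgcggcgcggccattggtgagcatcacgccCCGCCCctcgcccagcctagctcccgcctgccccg
GGGCGG, the core letters bound by Sp1-type factors, occurs 2 times here, 1 on each strand, and at least 1 match is held by 32.7% of 32851 mouse promoter windows of the same length. CCAAT occurs 2 times (33.8% of windows hold it on either strand) and TATAAA 1 time (12.4%), all 3 on the minus strand. The window has 58.8% G and C, beside a median of 52.4%, and 17 CpG pairs, beside a median of 6. The deposited counts are per gene, so transcripts of the endogenous Prnp and of a transgene that carries Prnp sequence cannot be told apart.

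Among the labelled types of the frontal cortex the mNeur cells had the highest transgenic Prnp level and the widest gap in CPM. The next transgenic levels were 3118 CPM in EPC cells (209 CPM in wildtype), 1794 CPM in astrocytes (1231 CPM) and 1580 CPM in OPC-labelled cells (215 CPM). The ratio was larger in the MNC-labelled cells, at 32.8-fold, where the level was only 559 CPM against 17.0 CPM. Immature neurons had 417 and 136 CPM, a ratio of 3.06-fold (log2 1.61, 1.28 to 1.95), whose interval does not overlap that of the mNeur cells. The midbrain mNeur cells, 39 transgenic and 104 wildtype, had 2940 and 229 CPM (12.9-fold, log2 3.69, 3.46 to 3.92).

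**Figure D5:**
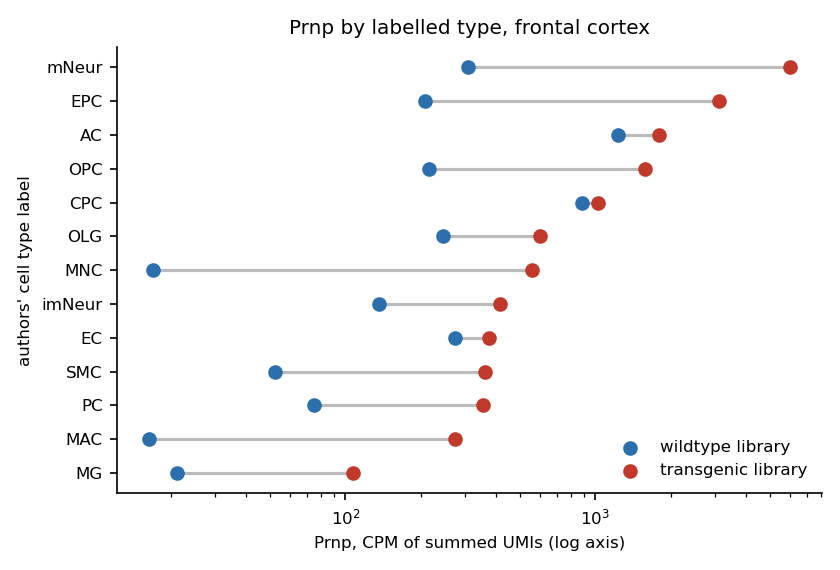
Prnp level in CPM of summed UMIs (logarithmic axis) for each cell type label of the frontal cortex, with the wildtype and transgenic libraries joined by a line. The mNeur cells are at 6010 and 308 CPM, the highest transgenic level.

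Across the transcriptome 331 genes were called higher and 181 lower in transgenic mNeur cells of 8223 compared, and 4143 ratios lay above 0 and 4080 below. In the 48 and 43 inhibitory cells alone 235 were higher and 112 lower of 6939 (5% called, 3.39% higher and 1.61% lower). With a call at 1.5 times, 11.5% of all genes compared were called, 6.59% higher and 4.91% lower. After Prnp, the highest ratios among genes with enough UMIs and cells were those of Cacna2d3, an auxiliary subunit of voltage-gated calcium channels, at 114 and 28.9 CPM (log2 1.98, 1.21 to 2.83) and of the POU-domain factor Pou2f2 at 83.9 and 22.1 CPM (1.92, 1.04 to 2.91). Rprm, a cell cycle inhibitor expressed in cortical neurons, was at 179 and 51.1 CPM (1.81, 1.23 to 2.43), and Plxna2, a semaphorin receptor, at 83.9 and 27.2 CPM (1.62, 0.81 to 2.52). Arap2, Zfp407, Sec61a2 and Jade1 lay between 1.71 and 1.90. Without the Cajal-Retzius-gene and striatal-gene cells the ratio was 1.32 for Cacna2d3, 1.81 for Pou2f2, 1.64 for Rprm and 1.18 for Plxna2. For Arap2, Zfp407, Sec61a2 and Jade1 it was then 1.65, 1.51, 1.57 and 1.99. Rgs9, a striatal regulator of G protein signalling, was at 75.6 and 22.1 CPM, and 40 of its 55 transgenic UMIs came from the 7 striatal-gene cells. It is among the list genes by which those cells were picked.

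Several of the genes called lower had ratios of similar size within the inhibitory class. Scgn, which encodes the calcium sensor secretagogin, was at 70.1 and 158 CPM (log2 -1.17, -1.70 to -0.67), with -1.09 in inhibitory cells. Stxbp6, a SNARE-binding protein, was at 195 and 443 CPM (-1.18, -1.49 to -0.88), with -1.20 in inhibitory cells, and the carboxypeptidase gene Cpa6 at 67.4 and 153 CPM (-1.19), with -1.11. Filip1l, a filamin-interacting protein, was at 89.4 and 250 CPM (-1.49, -1.93 to -1.05), with -1.42. Dnajc9, Sh3bgrl2 and Apold1 lay at -1.11, -1.13 and -1.15 (-0.99, -1.25 and -0.95 in inhibitory cells). Nr2f2 lay at -3.41 over all cells and had 0 transgenic and 1 wildtype UMIs in inhibitory cells, too few for a ratio. Clstn2 and Ramp1, at -1.26 each over all cells, turned to 0.41 and 0.88 in inhibitory cells.

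None of the 4 mature neuron markers was called over all cells. Meg3, a long noncoding RNA (chromosome 12, 109541001 to 109571726, plus strand), was at 11340.5 and 7702 CPM (log2 0.56, 0.51 to 0.61). Snap25 and Syt1, the vesicle fusion proteins, were at 1347 and 1655 CPM (-0.30) and at 1583 and 1854 CPM (-0.23), and Stmn2, a microtubule regulator of axons, at 254 and 283 CPM (-0.15). Within classes Stmn2 differed more: it was called higher in inhibitory cells, at 130 and 32.8 CPM (1.99, 1.11 to 2.98), and was at 507 and 827 CPM (-0.71) in excitatory cells. The 4 genes had a median of -0.19, while their sum was larger in the transgenic library, where only Meg3 was above 0. The Meg3 ratio was 0.18 by the mean of per-cell CPM and 0.30 after thinning.

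Most ion channel and glutamate receptor genes had ratios above 0, and 2 of 20 and 3 of 13 were called, beside 6.23% of all genes. Of 20 ion channel genes compared 18 were above 0, with a median log2 ratio of 0.44. Scn8a, the sodium channel of the axon initial segment, at 172 and 69.8 CPM (1.30, 0.78 to 1.85), and Cacna1b, the N-type calcium channel of synaptic terminals, at 114 and 52.8 CPM (1.11, 0.50 to 1.76), were called higher. In inhibitory cells the median of these genes was 0.53. Without the Cajal-Retzius-gene and striatal-gene cells the Scn8a ratio was 0.9997 (0.45 to 1.57), just short of a call, while Scn3b and Cacna1b were called higher. Of 13 glutamate receptor genes 10 were above 0, with a median of 0.43, and 3 were called higher. These were Gria3 (301 and 148 CPM, 1.02), Grm5 (419 and 194 CPM, 1.11) and Grik1 (42.6 and 18.7 CPM, 1.19), subunits or receptors of the AMPA, metabotropic and kainate kinds. Without the Cajal-Retzius-gene and striatal-gene cells only Grik1 was called and the median was 0.24. Grik1 had 31 and 11 UMIs, in 9 and 5 cells. Its ratio was -0.90 (-2.86 to 0.90) in inhibitory cells and 1.42 (-0.59 to 3.94) in excitatory cells. Without the 1 wildtype cell that held 469 endothelial marker UMIs, Gria3 was not called.

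Other synaptic lists sat near 0. Over all genes compared 6.23% were called. Of 21 genes of vesicle release compared only Sv2b was called, with a median of -0.07, and of 18 postsynaptic genes only Shank3, a scaffold protein, at 37.1 and 17.0 CPM (1.12, 0.03 to 2.34), with a median of -0.03. Of 13 GABA receptor genes only Gabbr2, a subunit of the metabotropic receptor, was called (106 and 42.6 CPM, 1.31, 0.65 to 2.03), with a median of 0.23. None of 23 cytoskeletal and axonal genes was called. Among 12 neuropeptide genes Vgf, a secreted granule protein, was called higher at 126 and 51.1 CPM (1.31, 0.70 to 1.95), besides Tac1.

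Immediate early genes were called in both directions, 2 of 23 higher and 4 lower, beside 4.03% higher and 2.2% lower of all genes. Of 23 compared, Npas4 (39.9 and 15.3 CPM, log2 1.38, 0.26 to 2.64) and Atf3 (109 and 17.0 CPM, 2.67, 1.72 to 3.79) were called higher, the former a factor induced by neuronal activity and the latter by injury and stress. Nr4a3, Klf4, Egr4 and Nr4a2 were called lower, Nr4a3 at 9.62 and 47.7 CPM (-2.31, -3.75 to -1.08) and Klf4 on 8 and 21 UMIs (-1.70, -3.08 to -0.47). The median was -0.27. Fos was at 232 and 276 CPM (-0.25, -0.57 to 0.07). Without the 4 cells rich in microglial markers the Atf3 ratio was 1.23. Without the 1 wildtype cell that held 469 endothelial marker UMIs, Klf4 lay at -1.04 and was not called, while Dusp1 was called higher.

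In the stress lists the share called was near the 6.23% of all genes or was 0. None of 14 heat shock genes was called (median -0.24), and of 14 unfolded protein response genes only Pdia4, a disulfide isomerase of the endoplasmic reticulum, was (44.0 and 20.4 CPM, 1.11, 0.11 to 2.20). Of 12 genes linked to inherited parkinsonism only Atp13a2, a lysosomal ATPase, was called, lower at 31.6 and 66.4 CPM (-1.07, -1.88 to -0.29). With the Cajal-Retzius-gene and striatal-gene cells left out its ratio was -0.77, short of a call.

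Respiratory chain genes of the mitochondrial and nuclear genomes lay on opposite sides of 0. All 13 mitochondrially encoded genes were above 0 with a median of 0.38, for example mt-Nd4 at 5204 and 3643 CPM (0.51, 0.44 to 0.59), and 24 of 27 nuclear ones were below 0 with a median of -0.30, for example Cox7b at 389 and 618 CPM (-0.67, -0.90 to -0.44). No gene of either list was called. The mitochondrial share of a cell's UMIs, a sign of RNA quality in dissociated cells, moved with the genotype. Its median was 4.54% in transgenic and 3.62% in wildtype cells, and 10.5% and 4.87% in the excitatory class. In inhibitory cells, with median shares of 3.57% and 3.46%, the list medians were 0.10 and -0.16. The part of RNA quality in these ratios was not tested.

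RNA of other cell types also moved with the genotype. Over all genes compared 4.03% were called higher and 2.2% lower. All 11 microglial markers compared were called higher, at a summed 1151 CPM against 344 CPM, and 4 transgenic cells had 20, 46, 202 and 291 microglial marker UMIs. The highest wildtype cell had 13, and the median was 3 in each library. Without these 4 cells none of 10 microglial markers compared was called, while 296 genes were higher and 184 lower over the transcriptome. Endothelial markers summed to 676 and 1568 CPM, with 5 of 9 called lower. Of the 921 wildtype endothelial UMIs 469 lay in 1 excitatory cell, while no other cell of either library had more than 19. Without that cell the wildtype sum was 786 CPM, 0 of 8 endothelial markers were called, and 350 genes were higher and 145 lower over the transcriptome (6.06% called). Haemoglobin gene Hbb-bs had UMIs in 68 of 80 transgenic and 12 of 67 wildtype cells, and 4 of 4 erythroid genes compared were called higher. Astrocyte markers summed to 777 and 444 CPM, with 3 of 6 called higher and 1 lower, and 3 of 5 higher and 0 lower without the cell rich in endothelial markers. The part of such RNA in the other ratios was not tested beyond those values.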

How the data were processed

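Single cells were captured with 10x Genomics 3′ v3 chemistry, and the submitters' processing notes name mm10, Seurat 3.1.5 and Cell Ranger 3.0.0 as what the authors worked with. The deposited matrix holds raw UMI counts, all whole, of 19602 features in each cell. The deposited cell table gives each cell's library, cluster, type label and mitochondrial share in percent. Cell filters and doublet removal are not given in the sources used here, and no doublet caller was run.

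Counts were summed over the mNeur cells of each library and scaled to CPM. Log2 ratios have exact 95% intervals (Clopper-Pearson on the sum of both counts), and a ratio against 0 UMIs used a floor of 3 UMIs over the group. Genes were compared at 20 CPM in at least 1 library and 20 UMIs over both, and called at a doubling with an interval without 0. As each group is a single library, the ratios carry no p-value. The method was tested on simulated counts.

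The members, lists and named genes were chosen with earlier results of these data known. Named genes are the excitatory, inhibitory and mature neuron lists, Prnp, 2 extremes each way of other lists, and the 12 ratios farthest from 0 each way at 50 CPM and 50 UMIs in at least 5 cells with at most 30% of UMIs in 1 cell. Some genes and the strain name are not reported here. The thresholds of 5 Cajal-Retzius or striatal list genes and of 20 microglial or 100 endothelial marker UMIs were set after seeing the data. Coordinates are from GENCODE for GRCm38, the assembly mm10 names, and sequence is from RefSeq. edgeR 4.0.16 and DESeq2 1.42.0 gave alternative scaling factors only.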

Additional observations from a re-analysis of the deposited data

How the results depend on the processing

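No paired analysis was possible because each group is 1 library and no value comes from a test. Scaling by TMM or by DESeq2 factors gave 325 genes higher by both and 184 and 188 lower. Counts of genes higher and lower that moved by over 1.5 times were 67 and 59 after thinning to 2000 UMIs, where fewer genes were compared, and 542 and 404 with a call at 1.5 times. Genes lower numbered 315 by the mean of per-cell CPM, 337 with both classes weighted alike, 112 in inhibitory cells and 502 in excitatory cells. The Prnp ratio was 3.89 in excitatory cells and 4.55 in cells with a microglial and endothelial marker share under the median, and ran from 4.08 to 4.45 under the other settings. List medians left their interval for mature neuron markers (0.0880 in inhibitory cells, 0.14 without the Cajal-Retzius-gene and striatal-gene cells), interneuron subtypes (0.61 in inhibitory cells), Cajal-Retzius genes (-0.94 thinned, -0.68 over the same 7 genes at a low microglial and endothelial share, reversed to 1.08 in inhibitory cells), neuropeptides (-0.10 under 10% mitochondrial UMIs), mitochondrially encoded genes (0.19 under 10%, 0.10 in inhibitory cells) and nuclear respiratory genes (-0.0932 by the mean of per-cell CPM). The 0.61 of the interneuron subtypes was 0.40 over the 10 genes with enough UMIs in inhibitory cells, inside the interval of -0.54 to 0.55. The cause of these shifts was not tested.

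Single genes reversed in inhibitory cells were Reln (1.48), Clstn2 (0.41), Ramp1 (0.88) and Ndnf (1.43). Without the Cajal-Retzius-gene and striatal-gene cells, Reln (1.01), Clstn2 (0.46), Ramp1 (0.21), Ndnf (1.55), Slc17a6 (0.95) and Tbr1 (0.0419) reversed (Reln and Ndnf are among the list genes by which those cells were picked), and at a low microglial and endothelial share Ramp1 (0.14) and Ndnf (0.53). The planned limit of 4 UMIs of other types' markers left 1 transgenic and 3 wildtype cells and was not run. Settings on cells of single classes, on the Cajal-Retzius-gene and striatal-gene cells and on microglial and endothelial markers, among them leaving out the wildtype cell with 469 endothelial marker UMIs, were chosen after seeing the data. Depth limits sparse genes: a count of 0 allows 4.12 CPM in transgenic and 5.11 CPM in wildtype mNeur cells.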
